A study of Mus musculus with 24 samples.

Results

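Active YAP was compared with GFP in *Xinβ* knockout hearts, which lack the actin-binding protein Xinβ of the intercalated disc, encoded by *Xirp2*. The comparison holds 8 of the 24 libraries of the series, 4 from *Xinβ* KO hearts that received AAV9-GFP (KO/GFP) and 4 from *Xinβ* KO hearts that received AAV9 with active YAP (KO/YAP S127A), chosen by their labels. It was fitted over the 14597 of 15327 listed genes that passed a filter on low values. Both vectors were given at postnatal day 1 and the hearts were taken at postnatal day 7.5. The chicken cardiac troponin T promoter drove the transgene, so it was meant for cardiomyocytes, while the RNA came from all cells of the tissue. The transgene is a Flag-tagged human YAP in which the serine that LATS kinases phosphorylate to inhibit it is replaced by alanine (S127A). The knockout carries a LacZ-Neo cassette in place of a stretch of *Xirp2* that runs from exon 6 through intron 6 into exon 7, on a C57BL6 background, and both groups share it. The labels name the apex of the heart, where the methods name ventricles, and hearts of both sexes were used. The other libraries came from WT hearts with the same 2 vectors (WT/GFP and WT/YAP S127A, 4 each) and from KO and WT hearts of the same age without a vector (4 each).

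YAP is a transcriptional coactivator that the Hippo kinases MST and LATS hold in the cytoplasm by phosphorylation. In the nucleus it binds TEAD factors, and in the heart it is known for driving cardiomyocyte proliferation before and shortly after birth, when these cells still divide. Known targets include matricellular genes such as *Ccn1* and *Ccn2*, the stress-responsive *Ankrd1* and the receptor tyrosine kinase *Axl*. The week after birth is also when cardiomyocytes leave the cell cycle and turn from glycolysis to fatty acid oxidation.

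The KO/GFP libraries held between 16682014 and 18810557 reads on genes and the KO/YAP S127A libraries between 16645760 and 17566537. KO/GFP replicate 2 stood apart from its group, with 24.4% of its reads on mitochondrially encoded genes, against 18.1% to 18.4% in the other KO/GFP and 13.6% to 16.5% in the KO/YAP S127A libraries. In *Hif3a*, *Xdh*, *Spock2* and the mitotic genes, given below, KO/GFP replicates 1 and 4 lay at one end and replicates 2 and 3 at the other. In bulk tissue, fewer cells of a type and less RNA per cell cannot be told apart. Values are CPM, reads scaled to library size by the authors, and limma tested the group differences in log2(CPM + 1), with p-values adjusted by Benjamini-Hochberg over all 14597 tested genes. One fit held all 16 injected libraries, so each SE and p-value also rests on the spread among the WT hearts. A gene is called at an adjusted p under 0.05. Log2 fold changes are KO/YAP S127A minus KO/GFP on the log2(CPM + 1) scale, which understates changes of low genes.

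The promoters of 6 genes named below are shown first, each as the 250 bases before the RefSeq start in GRCm38.p6, 5′ to 3′ on the strand of the gene. *Ccnb1* and *Ube2c* act in mitosis, and capitals mark the letters CCAAT and TTTGAA on either strand, the latter found in the CHR elements of many mitotic genes.
Ccnb1 (chr13:100786487-100786736, minus strand): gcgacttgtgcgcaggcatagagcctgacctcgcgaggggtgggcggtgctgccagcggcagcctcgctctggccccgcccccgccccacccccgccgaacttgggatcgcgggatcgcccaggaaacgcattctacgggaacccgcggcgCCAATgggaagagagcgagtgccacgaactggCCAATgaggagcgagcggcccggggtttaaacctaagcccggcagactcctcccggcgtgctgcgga
Ube2c (chr2:164769679-164769928, plus strand): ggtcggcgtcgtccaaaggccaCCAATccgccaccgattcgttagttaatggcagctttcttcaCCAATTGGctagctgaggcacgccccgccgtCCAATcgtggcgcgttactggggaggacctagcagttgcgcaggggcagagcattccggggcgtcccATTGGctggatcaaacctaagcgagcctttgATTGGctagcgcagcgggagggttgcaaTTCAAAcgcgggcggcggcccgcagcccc
Capitals in the next 3, of the immediate early genes *Nr4a3*, *Nr4a1* and *Fos*, mark TGACG on either strand, the core of cAMP response elements.
Nr4a3 (chr4:48045055-48045304, plus strand): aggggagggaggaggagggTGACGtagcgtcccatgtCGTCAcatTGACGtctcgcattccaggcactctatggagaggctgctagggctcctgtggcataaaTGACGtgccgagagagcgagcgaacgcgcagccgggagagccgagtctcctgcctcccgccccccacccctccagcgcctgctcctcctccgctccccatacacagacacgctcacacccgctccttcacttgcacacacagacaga
Nr4a1 (chr15:101266596-101266845, plus strand): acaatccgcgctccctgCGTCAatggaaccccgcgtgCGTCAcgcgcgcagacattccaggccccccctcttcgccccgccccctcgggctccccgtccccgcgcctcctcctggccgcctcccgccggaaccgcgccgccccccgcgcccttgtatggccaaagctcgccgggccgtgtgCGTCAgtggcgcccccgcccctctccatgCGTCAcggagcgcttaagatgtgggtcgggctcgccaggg
Fos (chr12:85473640-85473889, plus strand): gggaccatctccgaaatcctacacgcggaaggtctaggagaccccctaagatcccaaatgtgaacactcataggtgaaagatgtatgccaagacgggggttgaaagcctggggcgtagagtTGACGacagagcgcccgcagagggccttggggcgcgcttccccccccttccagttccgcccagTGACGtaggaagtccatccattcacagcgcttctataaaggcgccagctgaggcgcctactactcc
Capitals in the promoter of *Ankrd1*, a YAP target not called in this comparison, mark GGAATG on either strand, the letters that TEAD factors bind.
Ankrd1 (chr19:36119845-36120094, minus strand): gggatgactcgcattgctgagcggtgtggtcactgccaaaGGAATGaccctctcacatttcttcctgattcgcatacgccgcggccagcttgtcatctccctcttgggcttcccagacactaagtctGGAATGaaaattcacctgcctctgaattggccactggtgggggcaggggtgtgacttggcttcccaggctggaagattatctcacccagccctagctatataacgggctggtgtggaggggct
Among the 10436 tested genes with a promoter window, 36.5% held CCAAT, 10.4% TTTGAA, 10.6% GGAATG and 27.0% TGACG. Both CCAAT and TTTGAA stood in 436 of them (4.18%) and in 18 of 63 listed mitotic genes (28.6%), though *Nuf2* and *Knl1*, also of that list, held neither. TGACG, a motif chosen after seeing the data, stood in 11 of 17 listed immediate early genes (64.7%), and GGAATG in 8 of 30 listed YAP targets (26.7%). GGGCGG, the letters bound by SP1, stood in 59.2% of all, 60.9% of the called higher and 57.2% of the called lower genes, and in 66.7% of the mitotic and 14 of 17 (82.4%) of the immediate early list. Among the 827 genes called higher with a window, 40.0% held CCAAT, 12.7% TTTGAA, 12.2% GGAATG and 26.4% TGACG. Of the 703 called lower, 37.3%, 10.4%, 13.8% and 18.1% did. A match is a stretch of letters, not a shown binding site.

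In *Xinβ* KO hearts, active YAP changed genes in both directions. Genes of cell division, of the immediate early response, of the extracellular matrix and of macrophages were among the higher ones. Glucocorticoid-responsive, fasting and fatty acid oxidation genes and the neutrophil genes *S100a8* and *S100a9* were among the lower ones. Of the 14597 genes tested, 14.8% were called, 1146 higher (7.85%) and 1010 lower (6.92%). The change was 1 or more on the log2 scale for 209 of the higher and 195 of the lower genes, and 2 or more for 15 and 23. The 4 values of one group lay wholly above or below those of the other for 2560 genes (17.5%), among them 921 of the genes called higher and 819 of those called lower. With plain CPM (reads over the library total), a scaling chosen after seeing the data, the median of all genes moved from 0.01 to 0.13 on the log2 scale and the calls became 2156 higher and 591 lower, 78.5% higher against 53.2%. When only the 8 knockout libraries were fitted, 1208 genes were called.

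**Figure D1:**
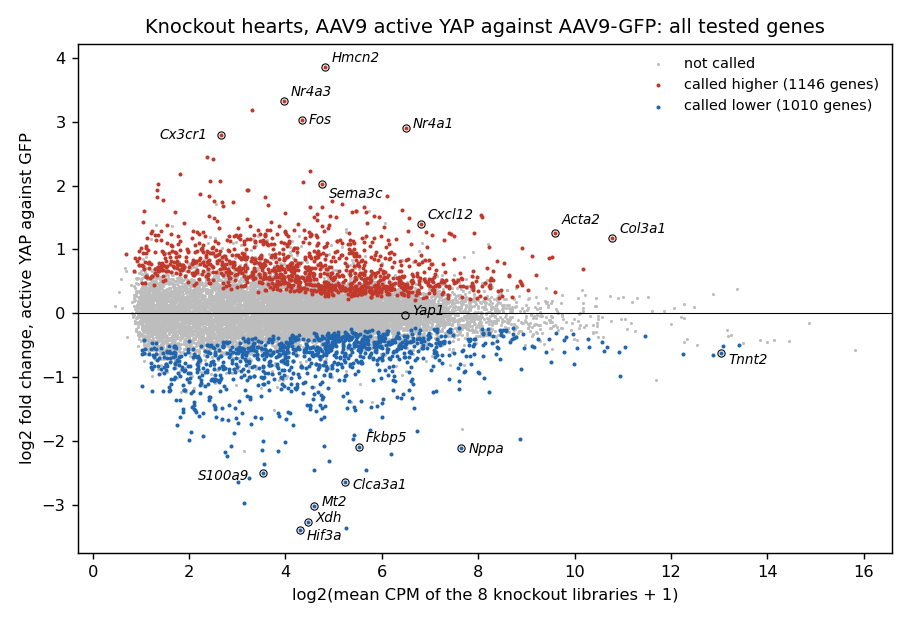
Log2 fold change between KO/YAP S127A and KO/GFP hearts (vertical) against mean expression over the 8 libraries, log2(mean CPM + 1) (horizontal), 1 point per tested gene. The 1146 genes called higher are red and the 1010 called lower are blue, and named genes are circled, from *Hmcn2* at 3.85 to *Hif3a* at -3.38.

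The targeted gene was near 0 in both groups. *Xirp2* (ENSMUSG00000027022, chromosome 2 from 67446002 to 67526614 of GRCm38 in GENCODE M21) was at 0.497, 0.327, 0.176 and 0.22 CPM in the KO/GFP hearts and 0.789, 0.117, 0.972 and 0 CPM in the KO/YAP S127A hearts (log2 fold change 0.12, SE 0.22, adjusted p = 0.76), against 116 ± 23 CPM in WT/GFP hearts (mean ± SD, n = 4). Its relative *Xirp1* was not called (log2 fold change -0.14, SE 0.13, adjusted p = 0.51). Mouse *Yap1*, to which the human transgene adds only such reads as align to it, was at 93.1, 83.8, 85.6 and 93.6 CPM in the KO/GFP hearts and 85.9, 88.5, 81.7 and 92.6 CPM in the KO/YAP S127A hearts (log2 fold change -0.03, SE 0.07, adjusted p = 0.81). The groups overlapped, and no other row of the table stands for the transgene. *Wwtr1*, which encodes the YAP relative TAZ, was not called either (-0.13, adjusted p = 0.26).

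The largest rises held an extracellular protein, immediate early transcription factors and macrophage genes. *Hmcn2* (ENSMUSG00000055632, chromosome 2 from 31314415 to 31460738), which encodes hemicentin-2 of the extracellular matrix, was at 1.61, 4.84, 5.03 and 0.771 CPM in the KO/GFP hearts and 47.3, 41.5, 55.6 and 60.3 CPM in the KO/YAP S127A hearts (log2 fold change 3.85, SE 0.30, adjusted p = 1.3e-06). Its lowest KO/YAP S127A value was above every KO/GFP value, and it was the largest rise of all. *Cx3cr1*, the fractalkine receptor of resident macrophages, was at 0.497, 0.785, 0.468 and 0.606 CPM in the KO/GFP hearts and 8.18, 10.4, 12.2 and 9.44 CPM in the KO/YAP S127A hearts (log2 fold change 2.79, SE 0.18, adjusted p = 2.3e-07). *Fcrls*, an Fc receptor-like gene of macrophages and microglia, rose with it from 0.796 ± 0.527 CPM to 8.58 ± 2.62 CPM (SD, n = 4; log2 fold change 2.42, SE 0.21, adjusted p = 4.5e-06). The annotated span of *Cx3cr1* takes in *Xirp1* on the same strand, and *Xirp1* had a log2 fold change of -0.14.

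*Ighm*, the heavy chain of immunoglobulin M made by B cells, was at 0, 0.327, 0.819 and 0 CPM in the KO/GFP hearts and 4.57, 4.03, 6.23 and 4 CPM in the KO/YAP S127A hearts (log2 fold change 2.18, SE 0.20, adjusted p = 6.7e-06). *Cdh23*, a cadherin best known from the hair cells of the ear, was at 0.497, 0.719, 1.4 and 0 CPM in the KO/GFP hearts and 7.67, 7.59, 7.83 and 7.49 CPM in the KO/YAP S127A hearts (log2 fold change 2.46, SE 0.20, adjusted p = 1.8e-06). Its KO/YAP S127A values lay within a narrow band. *Akap5*, an anchor of protein kinase A at membranes, rose from 1.49 ± 0.999 CPM to 9.07 ± 1.97 CPM (SD, n = 4; log2 fold change 2.08, SE 0.27, adjusted p = 0.00016). *Gm48488*, a long noncoding RNA gene, was at 1.3, 0.458, 0.878 and 1.1 CPM in the KO/GFP hearts and 16.3, 17, 11.7 and 22 CPM in the KO/YAP S127A hearts (log2 fold change 3.19, SE 0.67, adjusted p = 0.0046). It overlaps *Gas1* on the other strand, and whether the counting used strand is not given in the sources used here, so reads of the pair cannot be told apart. *Sema3c*, a secreted guidance factor of the outflow tract, and the chemokine *Cxcl12* were among the 5 smallest p-values. *Sema3c* was at 8.5, 9.94, 12.9 and 7.93 CPM in the KO/GFP hearts and 44.7, 41.2, 40.9 and 42.9 CPM in the KO/YAP S127A hearts (log2 fold change 2.03, SE 0.13, adjusted p = 2.3e-07). *Cxcl12* was at 61.1, 67.5, 53.2 and 59.8 CPM in the KO/GFP hearts and 187, 167, 163 and 128 CPM in the KO/YAP S127A hearts (log2 fold change 1.39, SE 0.11, adjusted p = 1.3e-06). For both, the groups were far apart relative to the spread within each.

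Among the falls, the smallest p-value of all genes belonged to *Clca3a1* (ENSMUSG00000056025, chromosome 3 from 144729677 to 144760977), of the family of chloride channel regulators. It was at 73.2, 49.8, 64.4 and 68 CPM in the KO/GFP hearts and 8.68, 10.5, 8.92 and 9.38 CPM in the KO/YAP S127A hearts (log2 fold change -2.63, SE 0.13, adjusted p = 7.5e-09), about even within each group. *Hif3a* (ENSMUSG00000004328, chromosome 7 from 17031507 to 17062427), a hypoxia-inducible factor subunit also induced by glucocorticoids, was at 52.9, 12.3, 5.91 and 72.2 CPM in the KO/GFP hearts and 1.69, 1.29, 1.09 and 1.37 CPM in the KO/YAP S127A hearts (log2 fold change -3.38, SE 0.54, adjusted p = 0.0007). KO/GFP replicates 1 and 4 were the highest, and replicates 2 and 3 still lay above every KO/YAP S127A heart. *Xdh*, xanthine dehydrogenase of purine breakdown, was also highest in KO/GFP replicates 1 and 4, at 52.5, 11.1, 23.1 and 72.6 CPM in the KO/GFP hearts and 1.97, 1.52, 2.97 and 3.6 CPM in the KO/YAP S127A hearts (log2 fold change -3.26, SE 0.47, adjusted p = 0.00037). *Mt2*, a metal-binding metallothionein, was at 52, 25.5, 36.4 and 54 CPM in the KO/GFP hearts and 5.81, 6.08, 2.17 and 3.43 CPM in the KO/YAP S127A hearts (log2 fold change -3.02, SE 0.36, adjusted p = 7.9e-05). It overlaps *Gm45774* on the other strand. *Ahsg*, which encodes the plasma glycoprotein fetuin-A, was at 20.5, 3.2, 2.34 and 35 CPM in the KO/GFP hearts and 0.451, 0, 0.114 and 0.801 CPM in the KO/YAP S127A hearts (log2 fold change -2.97, SE 0.58, adjusted p = 0.0031). Its KO/GFP values differed widely among themselves.

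The other large falls were *Slc10a6*, a carrier of sulfated steroids (log2 fold change -2.64, SE 0.38, adjusted p = 0.00031), *Spock2*, an extracellular proteoglycan (log2 fold change -2.46, SE 0.51, adjusted p = 0.0042), *Fmo2*, a flavin-containing monooxygenase (log2 fold change -2.35, SE 0.49, adjusted p = 0.0046), the membrane dipeptidase *Dpep1* (log2 fold change -2.31, SE 0.26, adjusted p = 4.4e-05) and *Ankrd63* (log2 fold change -2.24, SE 0.25, adjusted p = 4e-05). *Spock2* was highest in KO/GFP replicates 1 and 4, at 57.9 and 81.3 CPM, and at 11 and 16.3 CPM in the other KO/GFP hearts. The KO/YAP S127A hearts were all lower, from 3.32 to 6.52 CPM. All these genes kept their call when each of the 8 libraries was left out in turn.

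**Figure D2:**
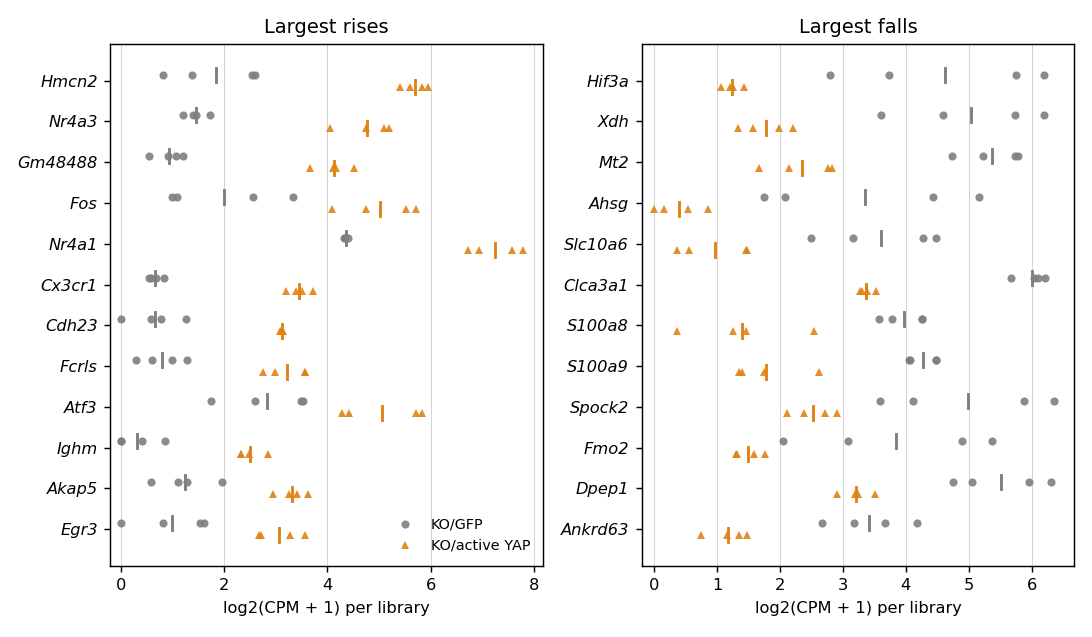
Expression, log2(CPM + 1), of the 12 largest rises and 12 largest falls in each KO/GFP (grey circles) and KO/YAP S127A (orange triangles, marked active YAP) library, with vertical bars at the group means. The genes were chosen for groups that do not overlap, and the KO/GFP hearts are spread wider in *Hif3a*, *Xdh*, *Ahsg*, *Spock2* and *Fmo2* than the KO/YAP S127A hearts.

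Genes were read in lists by function, and each list is described by its called members and its median log2 fold change, beside 7.85% called higher, 6.92% called lower and a median of 0.01 over all tested genes. The mitotic list had 44 of 77 genes called higher and none called lower. The glucocorticoid-responsive list had 15 of 28 called lower and 2 higher. The Hippo pathway itself had 1 higher and 1 lower of 30, below the share of all genes.

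**Figure D3:**
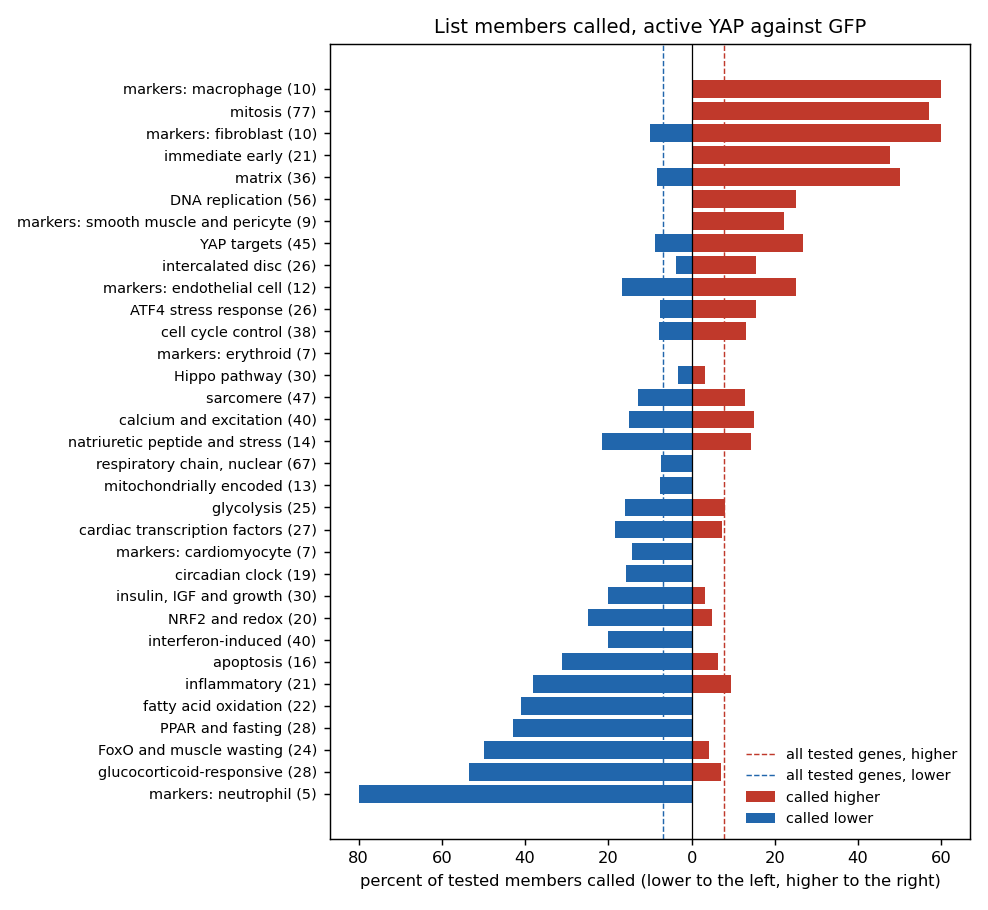
Percent of the tested members of each list called higher (red, to the right) or lower (blue, to the left) in KO/YAP S127A against KO/GFP hearts, with the number of tested members in brackets. Dashed lines mark the shares over all tested genes, 7.85% higher and 6.92% lower.

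Cell division genes were higher with active YAP. Of the 77 mitotic genes, 76 had a positive log2 fold change and 44 were called, with a median of 0.92. The calls were 12 of 19 genes of mitotic entry and the spindle checkpoint, 8 of 15 of the kinetochore, 12 of 20 of spindle motors and assembly, 4 of 6 of cytokinesis and 8 of 17 of chromosome structure. *Ccnb1*, the cyclin that activates CDK1 at the entry into mitosis, was at 6.7, 18.3, 13.1 and 4.08 CPM in the KO/GFP hearts and 20.2, 27.5, 25.2 and 31 CPM in the KO/YAP S127A hearts (log2 fold change 1.39, SE 0.31, adjusted p = 0.0071). *Nuf2*, a subunit of the kinetochore's NDC80 complex, was at 3.6, 16.7, 10.2 and 2.81 CPM in the KO/GFP hearts and 16.9, 19.7, 19.7 and 19 CPM in the KO/YAP S127A hearts (log2 fold change 1.37, SE 0.33, adjusted p = 0.011). *Knl1*, a scaffold of the kinetochore, was at 3.29, 7.91, 4.91 and 2.42 CPM in the KO/GFP hearts and 14.9, 11.2, 13.3 and 11.5 CPM in the KO/YAP S127A hearts (log2 fold change 1.37, SE 0.25, adjusted p = 0.0018). For these 3 genes all KO/YAP S127A hearts were above all KO/GFP hearts. *Ube2c*, the ubiquitin-conjugating enzyme of the anaphase-promoting complex, overlapped between groups, at 7.88, 37.7, 18.4 and 4.41 CPM in the KO/GFP hearts and 27.6, 39, 34.5 and 38.1 CPM in the KO/YAP S127A hearts (log2 fold change 1.36, SE 0.40, adjusted p = 0.03). Its annotated span overlaps *Tnnc2* on the other strand.

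The 4 KO/GFP hearts were unlike each other in these genes. The mean log2(CPM + 1) over the mitotic list was 3.22, 4.3, 3.94 and 2.58 in KO/GFP replicates 1 to 4, and 4.3, 4.46, 4.5 and 4.4 in the KO/YAP S127A hearts. KO/GFP replicates 2 and 3 lay near the KO/YAP S127A hearts and replicates 1 and 4 far below. The number of mitotic genes called was 9 when only the 8 knockout libraries were fitted. It was 24 without KO/GFP replicate 1, 29 without KO/GFP replicate 4, 27 without KO/YAP S127A replicate 2, 26 without KO/YAP S127A replicate 3 and 70 without KO/GFP replicate 2. In the fit of the 8 knockout libraries none was called of cytokinesis or chromosome structure, and those counts fell to 2 without KO/YAP S127A replicate 1 and without KO/GFP replicate 1, respectively.

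**Figure D4:**
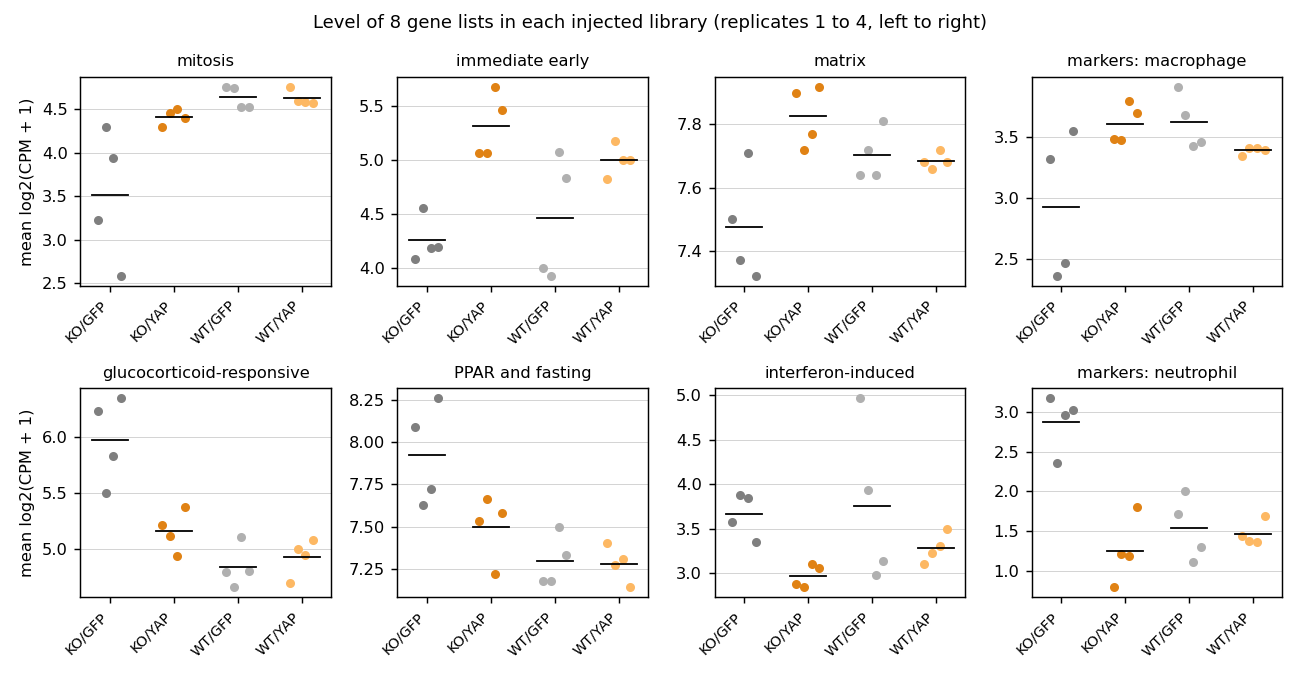
Mean log2(CPM + 1) of 8 lists in each injected library, replicates 1 to 4 from left to right within a group, with a bar at the group mean. In the mitotic list KO/GFP replicates 1 and 4, at 3.22 and 2.58, sit below every other library, and in the interferon-induced list WT/GFP replicate 1, at 4.97, sits above every other library.

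Of 56 tested DNA replication genes, 14 were called higher and none lower, with a median of 0.46. *Rrm2*, a subunit of ribonucleotide reductase, was at 30.2, 38.9, 65.7 and 14.5 CPM in the KO/GFP hearts and 64.7, 73.3, 75.2 and 74.3 CPM in the KO/YAP S127A hearts (log2 fold change 1.11, SE 0.28, adjusted p = 0.015). The *Rrm2* groups overlapped, since KO/GFP replicate 3 lay above KO/YAP S127A replicate 1. *Mcm2* (0.90, adjusted p = 0.022) and *Mcm5* (0.87, adjusted p = 0.031), subunits of the replicative helicase, overlapped between groups, since KO/GFP replicate 3 lay among the KO/YAP S127A values. *Brca1* of DNA repair did not overlap (0.85, adjusted p = 0.043). With only the 8 knockout libraries, 1 replication gene was called. With 1 library left out, the count lay between 4, without KO/YAP S127A replicate 3, and 27, without KO/GFP replicate 3. It also lay beyond 1.5 times the main count without KO/GFP replicates 1 (6) and 4 (8), without KO/YAP S127A replicates 1 (7), 2 (6) and 4 (7), and in edgeR (7) and plain CPM (25).

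Regulators of the cell cycle went both ways, with 5 of 38 called higher, 3 lower and a median of 0.07. *E2f1*, the transcription factor of S-phase genes, was called higher (0.76, adjusted p = 0.049), a call that rested on single libraries, being lost in 7 of the 8 fits that left one out. *Trp53inp1* and *Sesn1*, both p53 targets, were lower. *Trp53inp1* was at 53.1, 33.5, 59.4 and 57.7 CPM in the KO/GFP hearts and 17.6, 18.2, 16.5 and 27.9 CPM in the KO/YAP S127A hearts (log2 fold change -1.30, SE 0.26, adjusted p = 0.0032). *Sesn1* showed a log2 fold change of -0.96, adjusted p = 0.0063. *Cdkn1a*, the CDK inhibitor p21, was at 109, 76.5, 109.7 and 124 CPM in the KO/GFP hearts and 71.8, 70.8, 62.7 and 93.5 CPM in the KO/YAP S127A hearts (log2 fold change -0.48, SE 0.15, adjusted p = 0.038). Its groups overlapped and its call was lost in 6 of those 8 fits. The antiproliferative *Btg2* rose (0.88, adjusted p = 0.016) and is also in the immediate early list. The 8 calls of this list became 5 without KO/GFP replicate 1, 4 without KO/YAP S127A replicate 2 or 3, 3 with only the 8 knockout libraries, 13 without KO/GFP replicate 2 or 3 or under plain CPM and 14 in DESeq2.

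In the Hippo pathway, *Tead3*, one of the TEAD factors, fell and *Dchs1*, an atypical cadherin upstream of the kinases, rose. *Tead3* was at 42, 38.5, 33.5 and 44.8 CPM in the KO/GFP hearts and 20.1, 22.1, 26.2 and 23.9 CPM in the KO/YAP S127A hearts (log2 fold change -0.75, SE 0.14, adjusted p = 0.0018). *Dchs1* was at 53.2, 48.3, 64.6 and 41.4 CPM in the KO/GFP hearts and 79.3, 81.1, 76 and 87.3 CPM in the KO/YAP S127A hearts (log2 fold change 0.65, SE 0.12, adjusted p = 0.0016). No other of the 30 tested genes of the pathway, kinases included, was called. The number called among all 30 was 4 without KO/GFP replicate 2, without KO/YAP S127A replicate 3 or in DESeq2, and 8 under plain CPM. Of 45 known YAP targets, 12 were called higher and 4 lower, with a median of 0.37. The lower count ran from 2 without KO/YAP S127A replicate 1 to 6 without KO/GFP replicate 2, and plain CPM gave 19 higher and 2 lower. *Thbs1*, the matricellular thrombospondin-1, was at 42.1, 36, 60.4 and 29.2 CPM in the KO/GFP hearts and 145, 127, 119 and 113 CPM in the KO/YAP S127A hearts (log2 fold change 1.61, SE 0.25, adjusted p = 0.00056), the largest rise of the list. The neurotrophin *Bdnf* rose as well (log2 fold change 0.89, SE 0.22, adjusted p = 0.012). *Axl* was called higher (log2 fold change 0.61, SE 0.10, adjusted p = 0.00073). Beside these, *Igfbp3*, which binds insulin-like growth factors, was at 142, 29.6, 47.2 and 189.8 CPM in the KO/GFP hearts and 23.5, 23.1, 26.9 and 26 CPM in the KO/YAP S127A hearts (log2 fold change -1.63, SE 0.40, adjusted p = 0.013). The stress gene *Gadd45b* was also called lower (log2 fold change -0.98, SE 0.24, adjusted p = 0.012).

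Of the targets often used to read YAP activity, *Axl* was called, as given above, and *Ccn1*, *Ccn2* and *Ankrd1* were not. *Ccn1* was at 28.2, 49.4, 34.6 and 21.4 CPM in the KO/GFP hearts and 49.8, 41.2, 114 and 56.1 CPM in the KO/YAP S127A hearts (log2 fold change 0.89, SE 0.31, adjusted p = 0.062). *Ccn2* was at 135, 86.3, 108 and 137 CPM in the KO/GFP hearts and 95.8, 76.8, 205 and 167 CPM in the KO/YAP S127A hearts (log2 fold change 0.13, SE 0.24, adjusted p = 0.75). *Ankrd1* was at 558, 549.6, 515 and 604 CPM in the KO/GFP hearts and 484, 502, 1291 and 905 CPM in the KO/YAP S127A hearts (log2 fold change 0.39, SE 0.23, adjusted p = 0.26), with KO/YAP S127A replicates 3 and 4 above and replicates 1 and 2 below all KO/GFP hearts. The angiomotin-family gene *Amotl2* showed a log2 fold change of -0.19, adjusted p = 0.35. *Ccn1* passed the threshold when KO/YAP S127A replicate 2 or KO/GFP replicate 2 was left out.

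Immediate early genes, which signals switch on within minutes without new protein, were among the strongest rises. Of 21 tested, 10 were called higher and none lower, and the median was 0.73. *Nr4a3*, an orphan nuclear receptor, was at 2.3, 1.31, 1.64 and 1.76 CPM in the KO/GFP hearts and 33, 35.4, 15.6 and 25.8 CPM in the KO/YAP S127A hearts (log2 fold change 3.32, SE 0.38, adjusted p = 4.5e-05). Its relative *Nr4a1* was at 19.2, 20.1, 19 and 19.3 CPM in the KO/GFP hearts and 104, 121, 189 and 219.7 CPM in the KO/YAP S127A hearts (log2 fold change 2.90, SE 0.66, adjusted p = 0.0077), even in KO/GFP and spread in KO/YAP S127A hearts. *Fos*, an AP-1 subunit, was at 1.12, 9.09, 0.995 and 4.9 CPM in the KO/GFP hearts and 25.8, 15.9, 51.6 and 44.6 CPM in the KO/YAP S127A hearts (log2 fold change 3.02, SE 0.60, adjusted p = 0.0035). *Atf3*, a stress-induced factor, was at 5.03, 10.2, 10.5 and 2.37 CPM in the KO/GFP hearts and 20.5, 18.5, 51.5 and 55.7 CPM in the KO/YAP S127A hearts (log2 fold change 2.22, SE 0.51, adjusted p = 0.0083), and *Egr3* rose from 1.18 ± 0.97 CPM to 7.63 ± 2.68 CPM (SD, n = 4; log2 fold change 2.07, SE 0.31, adjusted p = 0.0005). The groups did not overlap for any of these 5 genes.

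The same genes varied among WT hearts. The mean over the list was 4.0, 3.93, 5.08 and 4.84 in WT/GFP replicates 1 to 4 and 4.83, 5.18, 5.0 and 5.0 in WT/YAP S127A hearts, on the log2(CPM + 1) scale. WT/GFP replicates 3 and 4 were thus near the WT/YAP S127A hearts and replicates 1 and 2 were near the KO/GFP hearts, which lay between 4.09 and 4.56. In WT hearts *Fos* had a log2 fold change of 1.06, *Nr4a1* of 1.72 and *Atf3* of 1.21, and the difference from the knockout was not called for *Fos* (1.96, adjusted p = 0.18), *Nr4a1* (1.18, adjusted p = 0.47) or *Atf3* (1.02, adjusted p = 0.42). It was called for *Nr4a3* (2.85, adjusted p = 0.0054) and *Egr3* (1.61, adjusted p = 0.037). *Nr4a1* and *Fos* in uninjected knockout hearts were at -1.55, adjusted p = 0.27, and -0.52, adjusted p = 0.7, on the log2 scale against WT, neither called.

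Extracellular matrix genes rose with active YAP. Of 36 tested, 18 were called higher and 3 lower, with a median of 0.42. *Col3a1*, a fibrillar collagen, was at 996, 1208, 1364 and 791 CPM in the KO/GFP hearts and 2610, 2181, 2335 and 2572 CPM in the KO/YAP S127A hearts (log2 fold change 1.18, SE 0.13, adjusted p = 3.9e-05). *Col15a1*, a collagen of the basement membrane zone, was at 133, 114, 189 and 106 CPM in the KO/GFP hearts and 406, 304, 414 and 442 CPM in the KO/YAP S127A hearts (log2 fold change 1.54, SE 0.17, adjusted p = 2.9e-05). *Col14a1*, which sits along collagen fibrils, was at 44.7, 73, 87.6 and 24.6 CPM in the KO/GFP hearts and 147, 112, 115 and 139 CPM in the KO/YAP S127A hearts (log2 fold change 1.29, SE 0.27, adjusted p = 0.0046). All 3 collagens were higher in every KO/YAP S127A heart than in any KO/GFP heart. *Timp4*, an inhibitor of matrix metalloproteinases, went the other way, at 58.8, 14.2, 25.1 and 83.2 CPM in the KO/GFP hearts and 9.13, 6.66, 6.8 and 9.49 CPM in the KO/YAP S127A hearts (log2 fold change -2.07, SE 0.39, adjusted p = 0.0022). With 1 library left out, between 16 and 19 matrix genes were called higher, and 14 with only the 8 knockout libraries.

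Fibroblast markers moved with the matrix. Of 10, 6 were called higher and 1, *Dpep1*, lower, and their summed level was 1237 to 1361 CPM in KO/GFP and 1713 to 2200 CPM in KO/YAP S127A hearts. *Pi16*, a marker of adventitial fibroblasts, was at 10.2, 15.8, 10.8 and 10.9 CPM in the KO/GFP hearts and 34, 30.6, 48 and 49.1 CPM in the KO/YAP S127A hearts (log2 fold change 1.67, SE 0.17, adjusted p = 2.2e-05). The matrix proteins *Dpt* (log2 fold change 1.23, SE 0.10, adjusted p = 1.3e-06), *Mfap5* (log2 fold change 1.12, SE 0.12, adjusted p = 3.5e-05) and *Dcn* (log2 fold change 0.53, SE 0.10, adjusted p = 0.0022) also rose. *Pdgfra*, the receptor that defines cardiac fibroblasts, was not called, at 59.5, 29.2, 51.7 and 66.5 CPM in the KO/GFP hearts and 59.1, 48.3, 56.2 and 73.6 CPM in the KO/YAP S127A hearts (log2 fold change 0.24, SE 0.20, adjusted p = 0.44). The part of the fibroblast content in the matrix result was not tested. *Acta2*, smooth muscle actin and an early sarcomeric actin of the heart, was at 480.2, 344, 596 and 397 CPM in the KO/GFP hearts and 1252, 1084, 1137 and 840.3 CPM in the KO/YAP S127A hearts (log2 fold change 1.26, SE 0.19, adjusted p = 0.00044). Of 9 smooth muscle and pericyte markers 2 were called higher, *Myh11* (0.82, adjusted p = 0.013) and *Rgs5* (0.33, adjusted p = 0.033), and *Tagln* was not (0.28, adjusted p = 0.43). Of those 2 calls 1 was left without KO/GFP replicate 1, 2 or 4 or KO/YAP S127A replicate 1, 2 or 3, with group-wise weights and with only the 8 knockout libraries.

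Macrophage and neutrophil genes moved apart. Of 10 macrophage markers 6 were called higher and none lower, with a median of 0.87. The log2 fold change was negative for 2 of the 10, down to -0.78. *Adgre1*, which encodes F4/80, was at 2.36, 0.588, 1.17 and 3.19 CPM in the KO/GFP hearts and 5.02, 5.02, 8.58 and 8.46 CPM in the KO/YAP S127A hearts (log2 fold change 1.52, SE 0.26, adjusted p = 0.0012). *Csf1r*, the receptor that macrophages need, was at 13.3, 20.2, 11.2 and 16.9 CPM in the KO/GFP hearts and 28.2, 33, 36.3 and 33.9 CPM in the KO/YAP S127A hearts (log2 fold change 1.07, SE 0.16, adjusted p = 0.00038). In both, every KO/YAP S127A heart was above every KO/GFP heart. The complement genes *C1qa* (1.42, adjusted p = 0.0026), *C1qb* (1.22, adjusted p = 0.035) and *C1qc* (1.15, adjusted p = 0.017) rose too, the last 2 with groups that overlapped. The summed level of the list was 68.7 to 147 CPM in KO/GFP and 128 to 169.6 CPM in KO/YAP S127A hearts. In mean log2(CPM + 1), it was at 3.32, 2.36, 2.47 and 3.55 in KO/GFP replicates 1 to 4. The KO/YAP S127A hearts were at 3.48, 3.47, 3.79 and 3.69, so KO/GFP replicates 1 and 4 lay near them and replicates 2 and 3 far below. When only the 8 knockout libraries were fitted, 3 genes of the list were called.

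Of 5 neutrophil markers 4 were called lower, with a median of -1.54. *S100a8*, which with *S100a9* forms the protein calprotectin, was at 18.2, 10.9, 12.8 and 18.1 CPM in the KO/GFP hearts and 0.282, 1.75, 1.37 and 4.8 CPM in the KO/YAP S127A hearts (log2 fold change -2.57, SE 0.34, adjusted p = 0.00018). *S100a9* was at 21.4, 15.6, 15.8 and 21.3 CPM in the KO/GFP hearts and 1.64, 2.34, 1.54 and 5.15 CPM in the KO/YAP S127A hearts (log2 fold change -2.50, SE 0.28, adjusted p = 4.2e-05). The granule genes *Ngp* (log2 fold change -1.50, SE 0.29, adjusted p = 0.0028) and *Ltf* (log2 fold change -1.54, SE 0.32, adjusted p = 0.0042) fell with them. The summed level was 31.4 to 54.3 CPM in KO/GFP and 4.12 to 14.2 CPM in KO/YAP S127A hearts, so the groups did not overlap. Of the lymphocyte markers, *Cd4* alone passed the filter and was not called (0.42, adjusted p = 0.24).

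Among inflammatory genes, 8 of 21 were called lower and 2 higher, with a median of -0.43. *Ccl2*, a chemokine that draws monocytes, was at 12.2, 5.56, 11.8 and 9.03 CPM in the KO/GFP hearts and 1.35, 3.04, 2.92 and 1.89 CPM in the KO/YAP S127A hearts (log2 fold change -1.67, SE 0.25, adjusted p = 0.0005). The adhesion molecule *Icam1* was at 38.8, 32.3, 44.1 and 36.9 CPM in the KO/GFP hearts and 15.7, 15.3, 12.8 and 13.8 CPM in the KO/YAP S127A hearts (log2 fold change -1.34, SE 0.17, adjusted p = 0.00015). The chemokine *Ccl6* (log2 fold change -1.61, SE 0.32, adjusted p = 0.003) and the oncostatin M receptor *Osmr* (log2 fold change -1.31, SE 0.26, adjusted p = 0.0034) fell as well. All 4 had groups that did not overlap. Interferon-induced genes all had negative log2 fold changes, 40 of 40, but 8 were called, with a median of -0.58. *Oas1a* was at 3.72, 6.34, 4.74 and 2.09 CPM in the KO/GFP hearts and 0.395, 0.234, 0.4 and 1.03 CPM in the KO/YAP S127A hearts (log2 fold change -1.74, SE 0.36, adjusted p = 0.0044). *Ifit1* (log2 fold change -1.62, SE 0.37, adjusted p = 0.0083), *Ifi27l2a* (log2 fold change -1.61, SE 0.32, adjusted p = 0.0034) and *Ifi44* (log2 fold change -1.51, SE 0.42, adjusted p = 0.023) were also called lower. The count of called interferon-induced genes was 4 without KO/GFP replicate 3 or KO/YAP S127A replicate 2, 5 without KO/YAP S127A replicate 1 or 4, 4 with group-wise weights, 13 in DESeq2 and 14 with only the 8 knockout libraries. In the WT hearts of the same fit the list ranged from 2.98 to 4.97 in mean log2(CPM + 1), with WT/GFP replicates 1 and 2 highest. The neutrophil markers above fell with the inflammatory genes while most macrophage markers rose, and their part was not tested.

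Glucocorticoid-responsive genes were lower with active YAP. Glucocorticoids act through a nuclear receptor that turns on such genes in many tissues, among them *Fkbp5*, a chaperone of that receptor. Of 28 tested, 15 were called lower and 2 higher, with a median of -0.56. *Fkbp5* was at 97.9, 25.4, 57.3 and 119.7 CPM in the KO/GFP hearts and 17.1, 14.7, 13.9 and 12.2 CPM in the KO/YAP S127A hearts (log2 fold change -2.09, SE 0.33, adjusted p = 0.00064). *Zbtb16*, the transcription factor PLZF, was at 98.3, 20, 134 and 85.8 CPM in the KO/GFP hearts and 29.9, 19.9, 3.83 and 7.89 CPM in the KO/YAP S127A hearts (log2 fold change -2.44, SE 0.65, adjusted p = 0.019), with 1 KO/GFP heart among the KO/YAP S127A values. *Hif3a* and *Mt2*, given above, are in this list. The mean over the list was 6.23, 5.5, 5.83 and 6.35 in KO/GFP and 5.22, 5.12, 4.94 and 5.38 in KO/YAP S127A hearts on the log2(CPM + 1) scale, so every KO/GFP heart was higher and KO/GFP replicates 1 and 4 were highest. Without KO/YAP S127A replicate 3, 11 of its genes were called in place of 17.

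Genes of muscle wasting and FoxO signalling fell with them. Of 24, 12 were called lower and 1 higher, with a median of -0.40. When only the 8 knockout libraries were fitted, 7 were called. *Klf15*, a factor of amino acid and lipid use that is itself induced by glucocorticoids, was at 44.9, 18.6, 36.5 and 57 CPM in the KO/GFP hearts and 12.9, 9.7, 10.3 and 18.5 CPM in the KO/YAP S127A hearts (log2 fold change -1.47, SE 0.30, adjusted p = 0.004). *Fbxo31*, a ubiquitin ligase subunit, was at 110.2, 58.6, 81.9 and 122 CPM in the KO/GFP hearts and 32.1, 33.8, 32.5 and 34.8 CPM in the KO/YAP S127A hearts (log2 fold change -1.40, SE 0.17, adjusted p = 7.9e-05). *Bnip3*, a mitochondrial protein of mitophagy and cell death, was at 153, 91.7, 119.8 and 168 CPM in the KO/GFP hearts and 60.9, 69.3, 56 and 67.9 CPM in the KO/YAP S127A hearts (log2 fold change -1.02, SE 0.15, adjusted p = 0.00032). The groups did not overlap for these 3 genes. *Asb15* of muscle fell too (log2 fold change -1.28, SE 0.34, adjusted p = 0.018), a call lost without KO/GFP replicate 4.

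In the BCL2 family, 5 of 16 genes were called lower and 1 higher, with a median of -0.34. The lower ones held the death-promoting *Bmf* (log2 fold change -0.95, SE 0.25, adjusted p = 0.017) and *Bcl2l11*, which encodes BIM (log2 fold change -0.84, SE 0.22, adjusted p = 0.017), and the higher one was the survival gene *Bcl2* (log2 fold change 0.45, SE 0.14, adjusted p = 0.044). *Bcl2* was at 16.9, 16, 19.2 and 10.3 CPM in the KO/GFP hearts and 18.9, 21.2, 22.8 and 22.1 CPM in the KO/YAP S127A hearts, with overlap, and its call was lost in 6 of the 8 fits that left a library out. The count of called genes in the family fell from 6 to 3 without KO/GFP replicate 1, KO/GFP replicate 4 or KO/YAP S127A replicate 2 and to 2 without KO/YAP S127A replicate 1. Of 19 clock genes, 3 were called lower, *Per2* (log2 fold change -0.88, SE 0.18, adjusted p = 0.004), *Tef* (log2 fold change -0.64, SE 0.17, adjusted p = 0.015) and *Nr1d1* (log2 fold change -0.46, SE 0.13, adjusted p = 0.029), and none higher, with 5 called without KO/GFP replicate 4 and 1 under plain CPM. The time of day at which hearts were taken is not given in the sources used here.

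Genes of fasting and fat use were lower. Of 28 PPAR and fasting genes 12 were called lower and none higher, with a median of -0.44. *Acot1*, a thioesterase of fatty acyl-CoA, was at 130.1, 53.3, 71.4 and 171 CPM in the KO/GFP hearts and 35.4, 48, 33.1 and 52.4 CPM in the KO/YAP S127A hearts (log2 fold change -1.19, SE 0.28, adjusted p = 0.0098). KO/GFP replicates 1 and 4 were again the highest. *Ehhadh* of peroxisomal oxidation (log2 fold change -0.84, SE 0.17, adjusted p = 0.0045) and *Txnip*, an inhibitor of glucose uptake (log2 fold change -0.76, SE 0.21, adjusted p = 0.025), were lower too. Under plain CPM and with only the 8 knockout libraries, 6 genes of this list were called.

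Of 22 fatty acid oxidation genes 9 were called lower and none higher, with a median of -0.23. Under plain CPM the median was -0.099 and 5 were called. *Slc27a1*, a fatty acid transporter, was at 267, 274, 232 and 319 CPM in the KO/GFP hearts and 125, 136, 149 and 164 CPM in the KO/YAP S127A hearts (log2 fold change -0.92, SE 0.11, adjusted p = 6.2e-05). *Pnpla2*, the triglyceride lipase ATGL, was at 269.5, 183, 215 and 318 CPM in the KO/GFP hearts and 122, 122, 134 and 155 CPM in the KO/YAP S127A hearts (log2 fold change -0.86, SE 0.15, adjusted p = 0.0015). *Acaa2*, the last enzyme of the mitochondrial spiral, was at 1475, 1476, 1403 and 1569 CPM in the KO/GFP hearts and 956, 979.5, 1019 and 1146 CPM in the KO/YAP S127A hearts (log2 fold change -0.53, SE 0.09, adjusted p = 0.0012). The groups were apart in all 3. *Acot13*, another thioesterase, was also called (-0.50, adjusted p = 0.0064).

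Glycolysis genes were mixed, with 2 higher and 4 lower of 25 and a median of -0.11, which turned to 0.017 under plain CPM, 0.035 under quantile normalization and 0.025 without KO/GFP replicate 1. *Hk2* was higher (0.45, adjusted p = 0.031), and *Pfkfb1* (-0.93, adjusted p = 0.0035), the glucose transporter *Slc2a1* (-0.68, adjusted p = 0.0092) and *Aldoa* (-0.46, adjusted p = 0.0082) were lower. Nuclear genes of the respiratory chain had 58 of 67 negative log2 fold changes, 5 of them called, with a median of -0.18, against -0.047 under plain CPM. *Cox6a2* (-0.61, adjusted p = 0.0075), *Ndufa6* (-0.46, adjusted p = 0.035), *Atp5c1* (-0.41, adjusted p = 0.0039) and *Ndufa7* (-0.38, adjusted p = 0.03) led them. The count, a share near that of all genes, was 8 in DESeq2 and 3 with group-wise weights and without KO/GFP replicate 1 or 2 or KO/YAP S127A replicate 3, and it was 2 without KO/YAP S127A replicate 1 or 2, under plain CPM or quantile normalization, or with only the 8 knockout libraries. All 13 mitochondrially encoded genes were lower in the fit and 1 was called, *mt-Atp8* (log2 fold change -0.52, SE 0.15, adjusted p = 0.025), with a median of -0.43. These genes moved with the share of mitochondrial reads given above, highest in KO/GFP replicate 2. The count of called mitochondrial genes was 0 without KO/YAP S127A replicate 3 or 4, under quantile normalization and with only the 8 knockout libraries. It was 2 without KO/GFP replicate 4, and 3 without KO/GFP replicate 3, with a pseudocount of 0.1, with median-ratio scaling and in limma without the trend. It was 4 in edgeR and 7 in DESeq2.

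Sarcomere genes went both ways, 6 higher and 6 lower of 47, with a median of -0.06, against 0.07 under plain CPM. Besides *Acta2*, *Mybpc2*, the fast skeletal form of myosin-binding protein C, was higher, at 9.5, 8.37, 16.6 and 5.4 CPM in the KO/GFP hearts and 23.3, 24.4, 56.4 and 30.8 CPM in the KO/YAP S127A hearts (log2 fold change 1.67, SE 0.27, adjusted p = 0.00088). *Myh7*, the slow myosin heavy chain of the fetal and failing mouse heart, was at 3413, 1372, 1730 and 4218 CPM in the KO/GFP hearts and 1325, 1232, 1142 and 1227 CPM in the KO/YAP S127A hearts (log2 fold change -0.97, SE 0.25, adjusted p = 0.016), a call lost without KO/GFP replicate 1. *Tnni1*, the slow skeletal troponin I that the heart uses before birth, was at 661, 494, 493 and 795 CPM in the KO/GFP hearts and 334, 384.8, 276 and 319 CPM in the KO/YAP S127A hearts (log2 fold change -0.87, SE 0.15, adjusted p = 0.0011). *Tnnt2*, cardiac troponin T, whose chicken promoter drives both vectors, was at 9924, 10951, 9829 and 9953 CPM in the KO/GFP hearts and 6587, 6324, 6632 and 6987 CPM in the KO/YAP S127A hearts (log2 fold change -0.61, SE 0.11, adjusted p = 0.0017). It was the only one of 7 cardiomyocyte markers called, against 2 under plain CPM, and their median of -0.16 turned to 0.09 under quantile normalization. *Myh6* (-0.16, adjusted p = 0.5) and *Actc1* (0.37, adjusted p = 0.16) were not, and the summed level of the 7 was 55140 to 65216 CPM in KO/GFP and 53314 to 56128 CPM in KO/YAP S127A hearts.

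Of 14 genes of cardiac stress, 3 were called lower and 2 higher, 3 in all without KO/GFP replicate 1 or with only the 8 knockout libraries. *Nppa*, the atrial natriuretic peptide that ventricles make before birth and under load, was at 266, 417, 381 and 198.6 CPM in the KO/GFP hearts and 28.1, 65.7, 163 and 76.9 CPM in the KO/YAP S127A hearts (log2 fold change -2.10, SE 0.42, adjusted p = 0.0037). Every KO/YAP S127A heart was below every KO/GFP heart, though *Gm13054* overlaps it on the other strand. *Spp1*, osteopontin, was at 7.39, 3.2, 2.4 and 8.87 CPM in the KO/GFP hearts and 0.226, 0.117, 1.14 and 0.686 CPM in the KO/YAP S127A hearts (log2 fold change -1.98, SE 0.36, adjusted p = 0.0019). *Nppa* is also 1 of 3 tested atrial markers, and *Myl4* (-0.10, adjusted p = 0.69) was not called, while the atrial light chain *Myl7* did not pass the filter, at 4.47, 0.981, 0.351 and 5.18 CPM in the KO/GFP hearts and 0.507, 0.467, 0.229 and 0.286 CPM in the KO/YAP S127A hearts. Cardiac transcription factors had 5 lower and 2 higher of 27. *Hey2*, a Notch target of the compact ventricular wall, was at 27.7, 17.3, 12.2 and 42.2 CPM in the KO/GFP hearts and 5.41, 5.55, 4.52 and 3.83 CPM in the KO/YAP S127A hearts (log2 fold change -2.02, SE 0.28, adjusted p = 0.00029). *Irx3* of the conduction system (log2 fold change -1.83, SE 0.28, adjusted p = 0.00057), *Irx4* of the ventricle (log2 fold change -0.73, SE 0.12, adjusted p = 0.00072) and *Tbx5* (log2 fold change -0.83, SE 0.16, adjusted p = 0.003) fell too. The 7 calls among these factors became 4 without KO/YAP S127A replicate 1 or 2 and with only the 8 knockout libraries, and neither of the 2 higher ones was left without KO/YAP S127A replicate 1.

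At the intercalated disc, where Xinβ sits, 4 of 26 genes were called higher and 1 lower, with a median of 0.15. *Ankrd23*, a titin-binding relative of *Ankrd1*, was at 60.3, 88.7, 95.1 and 40.4 CPM in the KO/GFP hearts and 124, 145, 241 and 166 CPM in the KO/YAP S127A hearts (log2 fold change 1.27, SE 0.24, adjusted p = 0.0022). *Fblim1* (0.52, adjusted p = 0.0092) and the integrin *Itga7* (0.36, adjusted p = 0.024) rose less, and the connexin gene *Gjc1* was lower with overlap (-0.32, adjusted p = 0.042). With only the 8 knockout libraries 2 disc genes were called, and with group-wise weights 3. Calcium and excitation genes had 6 higher and 6 lower of 40. The higher ones held *Casq1*, skeletal calsequestrin (log2 fold change 1.58, SE 0.38, adjusted p = 0.01), the pacemaker channel *Hcn2* (log2 fold change 0.95, SE 0.17, adjusted p = 0.0016) and the potassium channel *Kcnd2* (log2 fold change 0.81, SE 0.20, adjusted p = 0.014), and the lower ones the T-type calcium channel *Cacna1h* (log2 fold change -0.78, SE 0.17, adjusted p = 0.005).

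Growth genes of the insulin and IGF axis had 6 lower and 1 higher of 30, and 11 in all were called without KO/GFP replicate 2 and 13 under plain CPM. The imprinted *H19* was at 439, 692, 196.1 and 379 CPM in the KO/GFP hearts and 179, 159, 118 and 215 CPM in the KO/YAP S127A hearts (log2 fold change -1.24, SE 0.31, adjusted p = 0.014) and the imprinted *Peg3* at 298, 207, 199.2 and 347.6 CPM in the KO/GFP hearts and 173, 136, 92.5 and 102 CPM in the KO/YAP S127A hearts (log2 fold change -1.06, SE 0.18, adjusted p = 0.0014). The *H19* groups overlapped, since KO/GFP replicate 3 lay below KO/YAP S127A replicate 4. *Igfbp5* fell beside *Igfbp3* (log2 fold change -0.79, SE 0.18, adjusted p = 0.0094). Of 20 redox genes 5 were called lower and 1 higher, led by *Mgst1* (log2 fold change -1.74, SE 0.18, adjusted p = 2.2e-05), *Gstm1* (log2 fold change -1.47, SE 0.20, adjusted p = 0.00017), the secreted peroxidase *Gpx3* (log2 fold change -0.92, SE 0.21, adjusted p = 0.0075) and *Sod1* (log2 fold change -0.67, SE 0.10, adjusted p = 0.00055), none with overlapping groups. ATF4 targets had 4 higher and 2 lower of 26, among them *Mthfd2* of one-carbon metabolism (0.91, adjusted p = 0.021), *Pycr1* of proline synthesis (1.18, adjusted p = 0.017) and *Stc2* (-0.93, adjusted p = 0.0032), and 3 were called without KO/YAP S127A replicate 3 or with only the 8 knockout libraries.

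Markers of other cells moved little or both ways. Of 12 endothelial markers 3 were called higher and 2 lower. *Kdr*, the VEGF receptor (0.40, adjusted p = 0.0026), *Cd34* (0.70, adjusted p = 0.0037) and *Cdh5* (0.26, adjusted p = 0.044) were higher, the last lost in 6 of the 8 fits that left a library out. The fatty acid carrier *Fabp4* (-0.79, adjusted p = 0.00097) and *Emcn* (-0.45, adjusted p = 0.036) were lower, and *Pecam1* was not called (-0.03, adjusted p = 0.82). The 5 endothelial calls became 3 without KO/GFP replicate 1 or KO/YAP S127A replicate 1 or 2, with group-wise weights and with only the 8 knockout libraries. None of 7 erythroid, 4 epicardial and 2 Schwann cell markers was called, with medians of 0.02, 0.21 and -0.04. The alpha globin genes *Hba-a1* (0.02, adjusted p = 0.98) and *Hba-a2* (0.04, adjusted p = 0.94) are near copies that share reads, as are the beta globin genes *Hbb-bs* (0.23, adjusted p = 0.64) and *Hbb-bt* (0.12, adjusted p = 0.81). The erythroid anion exchanger *Slc4a1* was not called (-0.27, adjusted p = 0.61). *Wt1* (0.12, adjusted p = 0.76), *Upk3b* (0.24, adjusted p = 0.75), *Tbx18* (0.19, adjusted p = 0.47) and *Msln* (0.48, adjusted p = 0.5) of the epicardium, and *Mbp* (-0.06, adjusted p = 0.86) of Schwann cells, had overlapping groups. The 5 adipocyte markers listed were not analysed here.

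Some of the calls above rested on single libraries. Of the 134 named genes that were called, 106 kept the call in limma with each of the 8 libraries left out, and none changed sign. The others lost it, and are given with the highest adjusted p and the replicates whose absence cost the call. The first were *Asb15* (up to 0.052, KO/GFP 4), *Bcl2* (up to 0.11, KO/GFP 1 or 4 or any KO/YAP S127A heart), *Bcl2l11* (up to 0.057, KO/GFP 1 or 4 or KO/YAP S127A 1 or 2), *Bmf* (up to 0.061, KO/GFP 1 or 4 or KO/YAP S127A 1), *Brca1* (up to 0.097, KO/GFP 1 or 4 or any KO/YAP S127A heart), *Btg2* (up to 0.053, KO/YAP S127A 3 or 4) and *C1qb* (up to 0.095, KO/GFP 2 or 3 or KO/YAP S127A 1, 3 or 4). Next were *Cdh5* (up to 0.13, KO/GFP 1 or 4 or any KO/YAP S127A heart), *Cdkn1a* (up to 0.11, KO/GFP 1, 3 or 4 or KO/YAP S127A 1, 2 or 3), *E2f1* (up to 0.13, KO/GFP 1, 2 or 4 or any KO/YAP S127A heart), *Emcn* (up to 0.11, KO/GFP 1, 2 or 4 or KO/YAP S127A 1 or 2), *Gjc1* (up to 0.12, KO/GFP 1, 2 or 3 or KO/YAP S127A 1, 2 or 4), *Hk2* (up to 0.095, KO/GFP 1 or 4 or KO/YAP S127A 1, 2 or 3) and *Ifi44* (up to 0.071, KO/GFP 3 or KO/YAP S127A 1 or 2). Then came *Itga7* (up to 0.07, KO/GFP 2 or KO/YAP S127A 3 or 4), *Mcm2* (up to 0.06, KO/GFP 1 or 4 or KO/YAP S127A 2 or 3), *Mcm5* (up to 0.078, KO/GFP 1 or any KO/YAP S127A heart), *Mthfd2* (up to 0.07, KO/GFP 1 or 4 or KO/YAP S127A 3), *Myh7* (up to 0.059, KO/GFP 1), *Ndufa6* (up to 0.1, KO/GFP 1 or 2 or KO/YAP S127A 1, 2 or 3) and *Ndufa7* (up to 0.087, KO/GFP 2 or KO/YAP S127A 1 or 2). The last were *Nr1d1* (up to 0.081, KO/GFP 1 or 3 or KO/YAP S127A 1 or 2), *Pycr1* (up to 0.058, KO/GFP 4 or KO/YAP S127A 3), *Rgs5* (up to 0.095, KO/GFP 1, 2 or 4 or KO/YAP S127A 1, 2 or 3), *Txnip* (up to 0.079, KO/GFP 1 or 4 or KO/YAP S127A 3), *Ube2c* (up to 0.093, KO/GFP 1 or 4 or KO/YAP S127A 2, 3 or 4), *Zbtb16* (up to 0.062, KO/GFP 1 or KO/YAP S127A 3 or 4) and *mt-Atp8* (up to 0.077, KO/YAP S127A 3 or 4). With only the 8 knockout libraries fitted, 31 of the named calls were lost, those of the genes just given other than *Asb15*, *Bcl2l11*, *Ifi44* and *Zbtb16*, and also those of *Acot1*, *C1qc*, *Casq1*, *Igfbp3*, *Nuf2*, *Rrm2* and *Sesn1*. With group-wise weights 10 were lost, those of *Bcl2*, *Cdh5*, *Cdkn1a*, *E2f1*, *Emcn*, *Gjc1*, *Ifi44*, *Itga7*, *Ndufa6* and *Rgs5*.

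Whether active YAP acted alike in the 2 genotypes was tested as the difference of its effects, over the 16 injected libraries in one fit. In WT hearts limma called no gene with active YAP (0.0%), with 1011 at an unadjusted p under 0.05, none in edgeR and 11 in DESeq2. The genes called in knockout hearts had a median absolute log2 fold change of 0.64 there and 0.12 in WT hearts. Over all tested genes those medians were 0.21 and 0.11. The called genes were picked for their change in knockout hearts, so their smaller median in WT hearts is in part set by that choice. The difference itself was called for 1104 genes (7.56%), 976 of them also called in the knockout. It holds the same knockout values, so this overlap is in part set as well. The WT log2 fold change had the same sign as in the knockout for 37.1% of the genes called there and for 44.5% of all tested genes. *Hmcn2* was at 40.1 ± 7.16 CPM in WT/GFP and 29.4 ± 4.09 CPM in WT/YAP S127A hearts (SD, n = 4), and its 2 effects differed by 4.28, adjusted p = 3.9e-05. *Clca3a1* was at 17.7 ± 2.04 CPM and 19.8 ± 2.56 CPM (SD, n = 4), a difference of effects of -2.78, adjusted p = 7.1e-07.

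By list, the difference was called for 4 of 5 neutrophil and 7 of 10 fibroblast markers. It was called for 15 of 36 matrix genes, *Col3a1* among them (1.23, adjusted p = 0.0015), and 10 of 28 glucocorticoid-responsive genes. It was also called for 7 of 21 inflammatory, 7 of 24 FoxO and muscle wasting and 10 of 47 sarcomere genes. The counts were 9 of 77 mitotic, 7 of 45 YAP target and 1 of 40 interferon-induced genes. *Tnnt2* fell in the knockout and had a log2 fold change of 0.27 in WT hearts, a difference of -0.88, adjusted p = 0.0036. *Gpx3* likewise differed by -1.66, adjusted p = 0.0036, with 0.74 in WT. For *Ccnb1* the difference was 1.47, adjusted p = 0.053 and for *Myh7* -1.01, adjusted p = 0.095, not past the threshold. The median over the mitotic list was -0.02 in WT hearts, and over the matrix list -0.04. Over the interferon-induced list it was -0.41 in WT against -0.58 in knockout hearts, with 7 of 40 genes at an unadjusted p under 0.05 in WT, and over the immediate early list 0.45 against 0.73.

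The uninjected hearts share no library with this comparison, so they show how the genes moved by active YAP differed between *Xinβ* KO and WT without a vector. There, 504 genes were called higher (3.23%) and 540 lower (3.46%) in the knockout, against 353 higher and 1241 lower under plain CPM. The methods give single-end reads for the uninjected libraries and paired-end reads, from another facility, for the injected ones. With 1 uninjected library left out, the calls in all ran from 379 to 2098, and the overlaps given next were not recomputed in those fits. Of the 1146 genes called higher with active YAP, 1099 were tested in uninjected hearts and 1034 of them (94.1%) were lower in the knockout, 285 called. Of the 973 tested genes called lower with active YAP, 921 (94.7%) were higher in the uninjected knockout, 269 called. Over all 13734 genes tested in both tables, 51.8% were lower and 48.2% higher in the knockout. In the same direction, 0 of the genes called higher and 1 of those called lower were called in uninjected hearts. That gene, *Sox4*, a transcription factor of progenitor cells picked after its values were seen, was at -0.65 with active YAP (limma, adjusted p = 0.024) and at -0.82 in the uninjected knockout (adjusted p = 0.037) on the log2 scale.

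**Figure D5:**
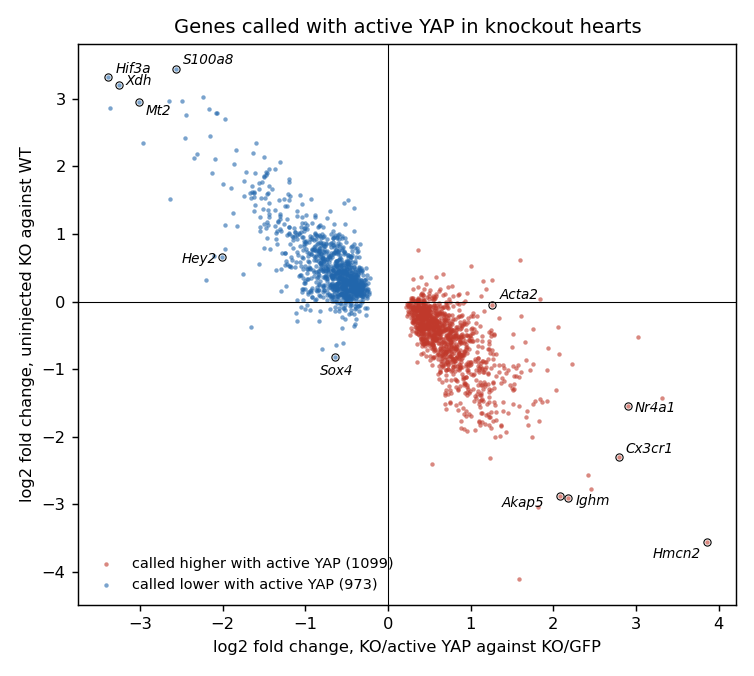
Log2 fold change of the 1099 genes called higher (red) and 973 called lower (blue) with active YAP in knockout hearts (horizontal) against their log2 fold change between uninjected KO and WT hearts (vertical), 1 point per gene. Most red points lie below 0 and most blue points above 0, 94.1% and 94.7%, and *Acta2* is near 0 on the vertical axis.

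Large rises with active YAP were large falls in the uninjected knockout for *Hmcn2* (-3.56, adjusted p = 0.00086), *Ighm* (-2.91, adjusted p = 0.00032), *Akap5* (-2.88, adjusted p = 0.0001), *Cdh23* (-2.77, adjusted p = 0.0003) and *Cx3cr1* (-2.30, adjusted p = 0.00086). Large falls with active YAP were rises there for *S100a8* (3.44, adjusted p = 0.0036), *Hif3a* (3.33, adjusted p = 0.0027), *Xdh* (3.21, adjusted p = 0.0036) and *Mt2* (2.95, adjusted p = 0.0016). Some genes moved with active YAP without a called change there. *Acta2* was at -0.05, adjusted p = 0.95 on the log2 scale in uninjected hearts, *Thbs1* at -0.22, adjusted p = 0.69, *Nppa* at 0.67, adjusted p = 0.47 and *Hey2* at 0.65, adjusted p = 0.064. Among the lists, 75 of 77 mitotic genes were lower in the uninjected knockout, 2 of them called. Of the glucocorticoid-responsive genes 25 of 28 were higher and 18 called, of the interferon-induced genes 38 of 40 were higher and 21 called, and of the matrix genes 28 of 36 were lower and 5 called. Between the injected controls, KO/GFP against WT/GFP, the median log2 fold change was -0.05 over the interferon-induced list, -1.18 over the mitotic, 1.07 over the glucocorticoid-responsive and -0.35 over the matrix list, and KO/GFP is also the control for active YAP. The neutrophil markers were called higher in uninjected knockout hearts in 5 of 5 and the macrophage markers lower in 6 of 9.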

How the data were processed

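RNA from hearts at postnatal day 7.5 was sequenced as strand-specific libraries. The uninjected libraries were read single-end and the injected ones paired-end, at different facilities. According to the labels and methods, the authors used Cutadapt 2.3 for trimming, HISAT2 2.1.0 for alignment on GRCm38, StringTie 1.3.4 for transcript assembly and edgeR 3.26.1 for CPM. The deposited values are a normalized signal, CPM whose columns sum to between 942566 and 1134439, read here as CPM on scaled library sizes. The worth of 1 read was taken from the smallest step of each library, and at least 99.96% of values were whole reads within 0.05 reads. Symbols came from GENCODE M21.

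Genes over 1 CPM in at least 8 of the 16 injected libraries (14597 of 15327), or 4 of the 8 uninjected ones (15598 of 15667), entered limma 3.58.1 as log2(CPM + 1), with its variance modelled on the mean. One model held the 4 injected groups. Counts recovered from the deposited values were tested with edgeR 4.0.16 and DESeq2 1.42.0 as alternatives. The study's methods name Fisher's exact test. According to the methods, controls were littermates, but which libraries shared a litter is not given in the sources used here, so litter was not modelled and p-values measure the spread between these samples, and groups follow the labels.

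The members and the lists were chosen with earlier results of these data known. Genes were named when they belong to the Xin family or are *Yap1* or *Wwtr1*, were among the 12 largest rises or falls called with groups that do not overlap, had one of the 5 smallest p-values, were among the 4 largest called changes of a list (or had its smallest p where none was called), were *Cdkn1a*, *Ccn1*, *Ccn2*, *Ankrd1*, *Axl* or *Amotl2*, or were the first 2 markers of a cell type. The limma and edgeR tests of active YAP against GFP were also run on simulated counts. DESeq2, the difference between genotypes and the uninjected comparison were not assessed there. Alternatives were a pseudocount of 0.1, other filters and scalings, limma without the trend or with group weights, a replicate block, *Ddx3y* as a covariate, a log2 fold change of at least 1, fits of the compared libraries alone and leaving out each library. Plain CPM was added after the data were seen. R 4.3.3, Python 3.11.15 and matplotlib 3.10.9 were used. A few named genes are not reported here.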

Additional observations from a re-analysis of the deposited data

Results flagged for a closer look

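Of the 36 leading genes, 23 had an effect of active YAP that differed between knockout and WT hearts by limma's test of the difference (adjusted p under 0.05, Benjamini-Hochberg). The differences, knockout minus WT on the log2 scale, were 4.28 for *Hmcn2*, 2.88 for *Cx3cr1*, 2.85 for *Nr4a3*, 2.63 for *Cdh23*, 2.49 for *Fcrls*, 2.40 for *Ighm*, 2.19 for *Sema3c*, 2.03 for *Akap5*, 1.78 for *Cxcl12*, 1.61 for *Egr3* and 0.73 for *Axl*. In the other direction they were -3.31 for *Hif3a*, -3.28 for *Ahsg*, -3.18 for *Mt2*, -3.08 for *Slc10a6*, -2.78 for *Clca3a1*, -2.75 for *S100a8*, -2.64 for *Fmo2*, -2.58 for *Xdh*, -2.42 for *Spock2*, -2.37 for *Dpep1*, -2.27 for *S100a9* and -2.07 for *Ankrd63*. Most of these genes were picked for the size or the p-value of their change in the knockout, so their large differences are in part set by that choice.

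A library was far from the other 3 of its group in 6 of 146 groups of values looked at, where chance gives about 7.3. *Wwtr1* was at 148 CPM in KO/GFP replicate 3. As means of log2(CPM + 1), KO/GFP replicate 2 was at 13.58 in the mitochondrially encoded genes, 6.97 in the intercalated disc genes and 7.55 in the endothelial markers. KO/YAP S127A replicate 1 was at 4.74 in the cell cycle regulators, and KO/YAP S127A replicate 4 at 5.91 in the genes of FoxO and muscle wasting.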

How the results depend on the processing

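The count of 2156 genes called in knockout hearts stayed within 1.5 times under the other filters, scalings, tools and covariates tried, between 1594 with group weights and 2747 with plain CPM. It was 1208 with only the 8 knockout libraries and 404 when a change of 1 on the log2 scale was also required. With one library left out it ran from 1480 (without KO/GFP replicate 1) to 2500 (without KO/GFP replicate 2). The difference between genotypes, 1104 genes, ran from 631 (without WT/YAP S127A replicate 4) to 1474 (without KO/GFP replicate 2), and was also more than 1.5 times lower without WT/GFP replicate 2 (639), KO/GFP replicate 1 (641), KO/YAP S127A replicates 1 (662) and 2 (727) and WT/YAP S127A replicates 2 (666) and 3 (676). In WT hearts 0 genes were called, 0 to 1 with one library left out and 11 in DESeq2. The 1044 genes of uninjected hearts became 1594 with plain CPM, 1955 in DESeq2 and 1927 with the *Ddx3y* covariate, and ran from 379 (without WT replicate 1) to 2098 (without KO replicate 4), moving by over 1.5 times with any of the 8 left out.

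With a replicate block, the knockout count was 1841, the difference between genotypes 707 and the uninjected count about 3.9e+02. The block also took the called cardiac transcription factors from 7 to 4 and the called nuclear genes of the respiratory chain from 5 to 3. Same-numbered KO/GFP and KO/YAP S127A libraries had correlations of their deviations from the group means of 0.08, -0.138, -0.02 and 0.014, so the numbers were not taken as pairs.

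Of the 134 named genes called, 106 kept the call with each of the 8 libraries left out, none changed sign, and 31 lost it when only the 8 knockout libraries were fitted and 10 with group weights. The median of 0.11 of the natriuretic peptide and stress list became -0.12 without KO/YAP S127A replicate 3. Genes near 1 CPM rest on few reads. The cause of these changes was not tested.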
